A study of Mus musculus with 12 samples.

Results

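The livers of hepatocyte-specific PPARα knockout mice kept on chow diet (KO chow) were compared with those of WT mice on the same diet (WT chow), to ask which genes change with the loss of PPARα when no dietary challenge is given. The comparison uses 6 of the 12 libraries of the study, chosen by their labels: 4 of WT chow and 2 of KO chow. All were male C57BL/6J mice that entered the experiment at 7 weeks of age and were killed at 13 weeks, after 6 weeks of diet. Both genotypes carried floxed Ppara alleles. KO mice carried an Albumin-Cre transgene, which deletes Ppara in hepatocytes and leaves it in other liver cells, and WT mice had no Cre. The other 6 libraries, 3 of WT and 3 of KO mice on a high-fat diet that lacks choline and has defined amino acids (CDAHFD), entered the shared fit and served as a separate set of mice for the genotype comparison. RNA of whole liver was read as counts per gene, so that fewer cells of a type and less RNA per cell cannot be told apart.

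PPARα is a nuclear receptor that is activated by fatty acids and binds DNA as a heterodimer with RXR. In hepatocytes it drives genes of peroxisomal and mitochondrial β-oxidation, microsomal ω-hydroxylation, ketogenesis and lipid transport, above all during fasting. Its DNA element, DR1, is a pair of half-sites in the same direction with a single base between them.

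Total counts of the 6 libraries ran from 29906785 to 40544457. Values are CPM, counts scaled to a common library size by edgeR's TMM method, which had factors of 0.7292 to 0.8268 in WT chow and 1.026 to 1.037 in KO chow, and values of a group are listed in the order of its replicate numbers. The KO chow libraries lay closer to the WT CDAHFD libraries (root mean square distance 0.657 to 0.771 in log2 CPM over all genes tested) and to each other (0.596) than to the WT chow libraries (1.16 to 1.45). Their distances to the KO CDAHFD libraries were 0.698 to 0.866, and the WT chow libraries were 0.604 to 0.794 apart. WT chow 1 stood apart from the other WT chow libraries in genes of the acute phase response and of myofibroblasts. Saa1, an acute phase protein, had 667.5 CPM there and 43.9 to 54.5 CPM in the other WT chow libraries, and Acta2, smooth muscle actin, had 31.9 CPM against 1.27 to 1.48 CPM. Neither gene was called with this library (log2 fold change -0.71, adjusted p = 0.576 for Saa1 and 0.62, adjusted p = 0.674 for Acta2), and both were higher in KO chow without it (1.33, adjusted p = 4.77e-04 and 3.35, adjusted p = 2.32e-04). Genes of the circadian clock divided the libraries of each genotype: Arntl had 46, 48.6, 5.3 and 5.73 CPM in WT chow and 45.3 and 15.4 CPM in KO chow, and Dbp, which peaks in the opposite phase, had 0.388, 0.472, 130.3 and 85.9 CPM in WT chow and 1.25 and 44.8 CPM in KO chow.

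Ppara (ENSMUSG00000022383, GRCm38 chromosome 15 from 85734983 to 85802819) had 120.1, 96.2, 237.8 and 226.1 CPM in WT chow and 14.4 and 38.7 CPM in KO chow. The KO chow libraries were below all WT chow libraries, at 0.156 times the WT chow mean (170.1 ± 72.3 CPM, SD, n = 4, against 26.5 ± 17.1 CPM, SD, n = 2). The log2 fold change was -2.68 with a standard error (SE) of 0.5 and an adjusted p of 0.00111 in edgeR's quasi-likelihood test. Reads from outside the floxed part, and from cells other than hepatocytes, enter these counts and were not separated.

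A gene was called at an adjusted p under 0.05. In KO chow 6763 of the 17358 genes tested were called (39.0%), 3814 of them higher (22.0%) and 2949 lower (17.0%), and these shares are the background against which each group of genes below is read. The libraries of the groups did not overlap for 6560 of the called genes, and for 8711 of all genes tested (50.2%). Changes of more than 4-fold were seen in 1608 called genes, of which 1258 were higher. The split of the calls rests on the scaling. When scaled by library size alone, all genes had a median of 0.40 on the log2 scale in place of 0.00, and 86.0% of 8186 calls were higher, against 56.4% in the fit with TMM. For this reason the number of lower members when scaled by library size alone is given beside each group below that moved down. With KO chow replicate 1 left out, 4320 genes were called, of which 4142 were among the 6763.

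The known target genes of PPARα were on balance lower, but a part of them rose. Of 62 listed genes, 60 were tested: 33 were lower (55.0%), 10 were higher (16.7%) and 17 were not called. Over all genes tested 17.0% were lower and 22.0% higher, so the share that rose was smaller among the targets. The median log2 fold change of the targets was -0.68 against 0.00 over all genes tested. When scaled by library size alone, 25 were lower and 15 higher. Genes of fatty acid binding, retinol metabolism and fasting regulation were among those that fell. Fabp1 (chromosome 6 from 71199827 to 71205023), the fatty acid-binding protein of hepatocytes, had 2942, 3460, 3758 and 3737 CPM in WT chow and 1548 and 1195 CPM in KO chow, with no overlap (log2 fold change -1.34, SE 0.17, adjusted p = 6.29e-05). Retsat, a retinol saturase, had 424.0, 397.1, 489.7 and 345.3 CPM in WT chow and 100.8 and 100.9 CPM in KO chow. It had the smallest adjusted p of the target genes (log2 fold change -2.04, SE 0.15, adjusted p = 7.42e-07). Creb3l3, a transcription factor of fasting lipid metabolism, had 451.0, 427.1, 581.4 and 519.3 CPM in WT chow and 267.6 and 228.4 CPM in KO chow (log2 fold change -1.0, SE 0.15, adjusted p = 1.78e-04). Vnn1, a pantetheinase, fell from 12.5 to 31.4 CPM in WT chow to 5.49 and 2.81 CPM (log2 fold change -2.51, SE 0.36, adjusted p = 1.42e-04).

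Several targets that are widely used as readouts of PPARα activity did not pass the test. Ehhadh, the bifunctional enzyme of peroxisomal β-oxidation, had 228.5 to 325.9 CPM in WT chow and 290.4 and 298.3 CPM in KO chow (log2 fold change 0.05, SE 0.15, adjusted p = 0.828). Acaa1b, a peroxisomal thiolase, had 636.8 to 1369 CPM and 759.6 and 660.4 CPM, and the groups overlapped. The lipid droplet coat protein Plin2 had 482.3 to 902.3 CPM in WT chow and 719.8 and 563.0 CPM in KO chow. Cpt1a, which admits fatty acids to mitochondria, had 428.2 to 735.2 CPM and 325.5 and 590.3 CPM. For Cyp4a10 and Cyp4a14, fatty acid ω-hydroxylases, the WT chow libraries spanned a wide range. Cyp4a14 had 357.2, 88.3, 123.1 and 11.9 CPM in WT chow and 118.2 and 143.2 CPM in KO chow, inside that range. Cyp4a10 had 212.5, 106.1, 175.6 and 27 CPM in WT chow and 50.3 and 47.1 CPM in KO chow (log2 fold change -1.42, SE 0.56, adjusted p = 0.0604), and passed the test without WT chow replicate 4 (-1.75, adjusted p = 6.44e-04).

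Among the 10 targets that rose were Fgf21, Cd36, Acot2, Cidec and Pdk4. Fgf21, a hormone of fasting, had 4.74, 1.89, 6.3 and 9.17 CPM in WT chow and 38.7 and 33.7 CPM in KO chow, all higher (log2 fold change 2.73, SE 0.63, adjusted p = 0.00433). Cd36, a fatty acid translocase, had 26.4, 20.7, 29.9 and 17.5 CPM in WT chow and 123.3 and 184.1 CPM in KO chow, a mean 6.5-fold higher (log2 fold change 2.7, SE 0.22, adjusted p = 1.61e-06). Acot2, a mitochondrial acyl-CoA thioesterase, had 1.19 to 4.5 CPM in WT chow and 40.1 and 41.8 CPM in KO chow (log2 fold change 3.78, SE 0.35, adjusted p = 4.03e-06). Acot genes have close paralogs that can exchange reads. Cidec, which fuses lipid droplets, had 2.01 to 5.8 CPM in WT chow and 20.7 and 21.7 CPM in KO chow (log2 fold change 2.31, SE 0.32, adjusted p = 1.10e-04). The related gene Cidea was too low to be tested. Pdk4, the kinase that closes pyruvate dehydrogenase, had 22.5, 16.2, 6.04 and 2.84 CPM in WT chow and 57.1 and 44.8 CPM in KO chow (log2 fold change 2.09, SE 0.61, adjusted p = 0.0165), and was not past the threshold without KO chow replicate 1 (adjusted p = 0.0933). Pparg, the PPAR of adipocytes, was higher as well, with 2.77 to 8.14 CPM in WT chow and 21.5 and 22.6 CPM in KO chow (log2 fold change 2.08, SE 0.27, adjusted p = 5.89e-05).

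**Figure D1:**
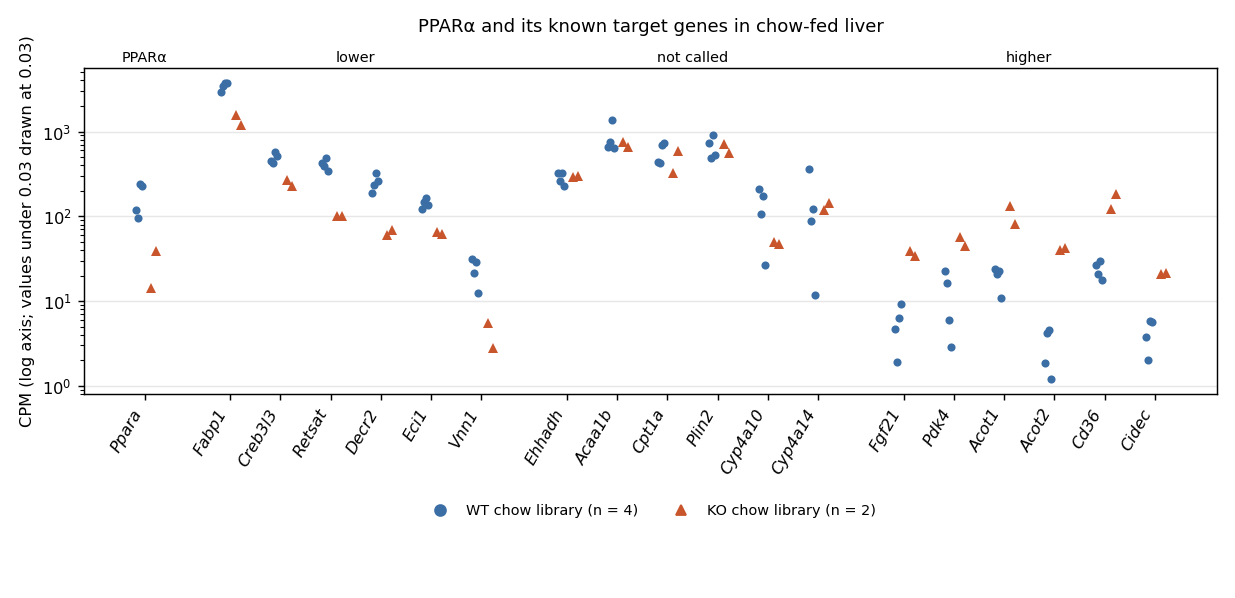
CPM (log axis) of Ppara and 18 of its known target genes in each chow library, with circles for the 4 WT chow libraries and triangles for the 2 KO chow libraries. The KO chow libraries lie below the WT chow libraries for Ppara and the 6 genes to its right, within or close to their range for the 6 genes not called, and above it for the 6 genes that were higher.

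The promoters of these genes were read for DR1, since it is the element that PPARα binds. It was written as the half-site AGGTCA, any single base, and AGGTCA again, and a match on either strand could differ at 2 of the 12 fixed bases. RefSeq promoters on GRCm38.p6, from 250 bases before to 50 bases after the gene start, were at hand for 47 of the 60 tested target genes, and 6 of these (12.8%) held a match. A match was held by 117 of the 2108 promoters of lower genes (5.55%), by 100 of the 2810 of higher genes (3.56%), by 254 of the 7220 of genes not called (3.52%), by 471 of the 12138 of all genes tested (3.88%) and by 4.4% of all 27025 promoters. Among target genes it was held by 3 of 25 that were lower (12%) and by 2 of 9 that were higher (22.2%), and among the genes lower in KO mice on both diets, described below, by 1 of 28 (3.57%). The share in lower genes was 1.58 times that in genes not called, and 1.21 times when 3 mismatches were allowed. With 3 mismatches, a match was held by 6 of 25 lower targets (24.0%) and 5 of 9 higher targets (55.6%). It was held by 12 of 28 genes lower on both diets (42.9%) and by 25.1% of genes tested. Windows of 30 bases around the match are shown for 5 of the 6 target genes with at most 2 mismatches. Matches occurred in targets that fell, in targets that were not called and in targets that rose. The window of the remaining target, which was lower, is not reported here. The windows shown are written 5′ to 3′ on the strand of the gene, with the match in capitals.
Fabp1, lower, chr6:71199804-71199833, plus strand: acaatcacTGACCTATGGCCTatatctgag
Creb3l3, lower, chr10:81092779-81092808, minus strand: ctgtaagtAGGGGAGAGGTCAcacagaccc
Plin2, not called, chr4:86670263-86670292, minus strand: agctttcaGGACCCCTGACCTaagtcagac
Cd36, higher, chr5:17835938-17835967, minus strand: tggttctcTGGCCTCTGACTTacttggatg
Acot4, higher, chr12:84038349-84038378, plus strand: ggctcagccccgaagcaTGACCTTTGGCCG
The match in Fabp1 had 1 mismatch and the others had 2, and those of Fabp1, Plin2, Cd36 and Acot4 read on the strand opposite to the gene. Acot4, a peroxisomal thioesterase, had 22.4, 35.8, 67.4 and 32.7 CPM in WT chow and 67.3 and 86.1 CPM in KO chow, which overlapped (log2 fold change 0.95, SE 0.31, adjusted p = 0.028), and its call was lost without either KO chow library (adjusted p = 0.0561 and 0.171) and without WT chow replicate 2 or 4 (adjusted p = 0.0565 and 0.0634). A match describes these letters only, and binding was not measured.

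Of 41 tested genes of peroxisomal oxidation and biogenesis, 28 were lower and 3 higher, with a median of -0.68, and 16 were lower when scaled by library size alone. Hsd17b4, the multifunctional enzyme of branched-chain and bile acid side chain oxidation, had 510.6 to 618.1 CPM in WT chow and 296.6 and 280.3 CPM in KO chow (log2 fold change -0.94, SE 0.12, adjusted p = 4.60e-05). Decr2, a reductase for unsaturated fatty acids, had 190.2, 231.7, 326.6 and 262.4 CPM in WT chow and 60 and 68.5 CPM in KO chow and was the list's largest decrease (log2 fold change -1.98, SE 0.19, adjusted p = 6.61e-06). Among the 3 that rose was Abcd2, a peroxisomal transporter of very long-chain fatty acids, with 3.03 to 9.77 CPM in WT chow and 17.2 and 52.3 CPM in KO chow (log2 fold change 2.64, SE 0.47, adjusted p = 7.32e-04).

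In mitochondrial β-oxidation and ketogenesis, 20 of 28 tested genes were lower and 2 higher (median -0.74), and 14 were lower when scaled by library size alone. Slc25a20, the carnitine-acylcarnitine carrier, had 115.4 to 175.8 CPM in WT chow and 67.4 and 56.4 CPM in KO chow (log2 fold change -1.17, SE 0.17, adjusted p = 1.27e-04). Acadvl, the very long-chain acyl-CoA dehydrogenase, had 268.5, 271.1, 321.4 and 318.3 CPM in WT chow and 117.0 and 116.8 CPM in KO chow (log2 fold change -1.33, SE 0.12, adjusted p = 3.87e-06). Acadm, the medium-chain enzyme, had 318.3 to 452.8 CPM and 428.6 and 440.9 CPM, and its log2 fold change of 0.17 (SE 0.13, adjusted p = 0.35) did not pass the test. Oxct1, which consumes ketone bodies and is normally low in hepatocytes, rose from 5.14 to 7.71 CPM in WT chow to 19.7 and 21.1 CPM (log2 fold change 1.68, SE 0.17, adjusted p = 8.18e-06). Of the respiratory chain, 29 of 41 tested genes were lower and none higher (median -0.49), which was 6 when scaled by library size alone and 13 without KO chow replicate 2. Genes of the mitochondrial genome took 5.2% to 6.46% of counts in WT chow and 3.6% and 4.51% in KO chow, and mt-Co1, a subunit of complex IV, had 23682 to 32088 CPM and 13447 and 17404 CPM (log2 fold change -0.9, SE 0.18, adjusted p = 0.0015).

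Fatty acid ω-hydroxylation was represented by 14 tested genes, of which 8 were lower and 1 higher (median -1.08), and 7 were lower when scaled by library size alone. Cyp4a12a, a male-specific hydroxylase of arachidonic acid, had 342.1, 226.1, 307.9 and 392.7 CPM in WT chow and 63 and 5.63 CPM in KO chow, so that the KO chow libraries were below WT chow but far apart (log2 fold change -3.21, SE 0.77, adjusted p = 0.00536). Cyp4a32 had 46.0 to 81.8 CPM in WT chow and 11.7 and 13.4 CPM in KO chow (log2 fold change -2.36, SE 0.21, adjusted p = 3.87e-06). Reads can be exchanged among the Cyp4a paralogs.

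Uptake, activation and droplet storage of fatty acids did not move as 1 group: 9 of 35 tested genes were higher and 14 lower (median -0.36). The share higher (25.7%) was near that of all genes tested (22.0%), and the share lower was 40.0% against 17.0%. When scaled by library size alone, 12 were higher and 8 lower, with a median of 0.03. Besides Cd36 and Cidec, Gpat3, an acyltransferase of triglyceride synthesis, rose from 1.38 to 1.97 CPM in WT chow to 30.1 and 23.9 CPM, a mean 15.7-fold higher (log2 fold change 3.96, SE 0.22, adjusted p = 1.05e-07). In the other direction, Fitm1, which buds lipid droplets from the endoplasmic reticulum, had 5.94, 6.48, 13.6 and 6.79 CPM in WT chow and 0.435 and 0.218 CPM in KO chow (log2 fold change -4.65, SE 0.59, adjusted p = 5.09e-05). Its exons overlap those of Gm15932, with which it may share reads. Slc27a2, a fatty acid transporter with acyl-CoA synthetase activity, fell from 1232 to 2111 CPM to 725.1 and 767.6 CPM (log2 fold change -1.18, SE 0.2, adjusted p = 4.97e-04).

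Lipogenesis, with 20 tested genes, had 8 lower and 4 higher (median -0.34). When scaled by library size alone, 4 were lower and 5 higher, with a median of 0.07. Without KO chow replicate 2, 5 were lower and 1 higher. Fasn, fatty acid synthase, had 221.1 to 436.3 CPM in WT chow and 228.7 and 227.4 CPM in KO chow and did not pass the test (log2 fold change -0.56, SE 0.24, adjusted p = 0.0777), which it passed without WT chow replicate 1 or 2 (adjusted p = 0.0441 and 0.0124). Thrsp, a regulator of lipogenesis, had 78.7 to 137.2 CPM in WT chow and 24 and 16 CPM in KO chow, without overlap (log2 fold change -2.48, SE 0.24, adjusted p = 5.55e-06). Scd2, the desaturase of fetal liver and of non-hepatocytes, had 5.46 to 14.6 CPM in WT chow and 39.2 and 34.8 CPM in KO chow (log2 fold change 2.09, SE 0.28, adjusted p = 8.05e-05). Sterol synthesis was called in 8 of 25 tested genes, 7 lower and 1 higher (median -0.44). In this list 4 genes were lower when scaled by library size alone (median -0.04), 13 without KO chow replicate 1, 11 without WT chow replicate 3 and 12 with a clock score, described below, as a covariate. Tm7sf2, a sterol reductase, had 137.0 to 166.4 CPM in WT chow and 49.3 and 27.3 CPM in KO chow (log2 fold change -1.95, SE 0.21, adjusted p = 1.75e-05), and may share reads with the overlapping gene Vps51.

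Bile acid synthesis and transport had 18 of 27 tested genes lower and 4 higher (median -0.80), and 12 lower when scaled by library size alone. Without KO chow replicate 2, 2 were higher. Cyp8b1, the sterol 12α-hydroxylase that makes cholic acid, had 487.0, 583.5, 386.5 and 384.9 CPM in WT chow and 75 and 94.1 CPM in KO chow, 0.184 times the WT chow level (log2 fold change -2.45, SE 0.22, adjusted p = 3.21e-06). Cyp27a1, which opens the alternative pathway, had 632.1 to 715.4 CPM in WT chow and 244.5 and 210.2 CPM in KO chow (log2 fold change -1.55, SE 0.11, adjusted p = 7.22e-07). Cyp7b1, the next enzyme of that pathway, had 1045, 818.8, 580.4 and 1224 CPM in WT chow and 122.4 and 43.5 CPM in KO chow (log2 fold change -3.47, SE 0.46, adjusted p = 7.77e-05). Cyp7a1, the rate-limiting enzyme of the classical pathway, had 71.5, 23.7, 44.7 and 90.6 CPM in WT chow and 93.1 and 291.6 CPM in KO chow. Its increase (log2 fold change 1.74, SE 0.62, adjusted p = 0.0413) rested on KO chow replicate 2, without which it was 0.70 (adjusted p = 0.512), and was also lost without WT chow replicate 2 or 3 (adjusted p = 0.0871 and 0.0885) and without WT CDAHFD replicate 1 or 2 (adjusted p = 0.0535 and 0.0513). The receptor Nr1h4 (FXR) and its target Nr0b2 (SHP), which represses bile acid synthesis, were both lower. Nr0b2 had 61.5 to 73.2 CPM in WT chow and 13.1 and 8.44 CPM in KO chow (log2 fold change -2.63, SE 0.54, adjusted p = 0.00202), and Nr1h4 had 132.3 to 211.9 CPM and 74.1 and 87.3 CPM (log2 fold change -1.1, SE 0.17, adjusted p = 2.57e-04). Among transporters, the importer Slco1a1 fell from 797.8 to 1382 CPM to 113.8 and 81.1 CPM (log2 fold change -3.39, SE 0.26, adjusted p = 9.49e-07), and the basolateral exporter Abcc4 rose from 1.79 to 2.7 CPM to 17.5 and 41.7 CPM (log2 fold change 3.64, SE 0.29, adjusted p = 1.26e-06).

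Amino acid catabolism and the urea cycle had 31 of 51 tested genes lower and 1 higher (median -0.64), with 20 lower when scaled by library size alone and 17 without KO chow replicate 1. Prodh, proline dehydrogenase, had 124.0, 189.2, 178.6 and 166.5 CPM in WT chow and 50.8 and 49.3 CPM in KO chow (log2 fold change -1.72, SE 0.16, adjusted p = 5.22e-06). Haao, an enzyme of tryptophan breakdown, had 479.1 to 675.6 CPM in WT chow and 196.6 and 188.9 CPM in KO chow (log2 fold change -1.6, SE 0.18, adjusted p = 2.47e-05). Arg1, the arginase of the urea cycle, had 1283 to 1884 CPM and 792.2 and 884.8 CPM (log2 fold change -0.89, SE 0.18, adjusted p = 0.0019). Complement, coagulation and carrier proteins of plasma had 39 of 50 tested genes lower and 3 higher (median -0.68), and 17 lower when scaled by library size alone. Albumin itself (Alb) had 59279 to 74134 CPM in WT chow and 55082 and 64173 CPM in KO chow, overlapping (log2 fold change -0.2, SE 0.19, adjusted p = 0.419). F11, coagulation factor XI, fell from 122.5 to 207.4 CPM to 56.8 and 65.1 CPM (log2 fold change -1.4, SE 0.19, adjusted p = 8.63e-05). The largest exception was Apoa4, an apolipoprotein of triglyceride-rich particles, with 52, 36.7, 51.3 and 48.1 CPM in WT chow and 966.1 and 942.6 CPM in KO chow. Its mean was 20.3-fold higher and its KO chow libraries differed little from each other (log2 fold change 4.34, SE 0.16, adjusted p = 4.70e-09).

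Transcription factors of the hepatocyte were lower in 14 of 27 tested genes and higher in 2 (median -0.66), with 8 lower when scaled by library size alone and 7 without KO chow replicate 1. Rxra, the partner of PPARα, had 669.2, 544.4, 770.2 and 811.1 CPM in WT chow and 304.3 and 395.4 CPM in KO chow (log2 fold change -1.0, SE 0.18, adjusted p = 7.12e-04). Nr1i3 (CAR), a xenobiotic receptor, had 18 to 46.1 CPM in WT chow and 9.08 and 8.61 CPM in KO chow (log2 fold change -1.89, SE 0.31, adjusted p = 3.78e-04), and may share reads with the overlapping gene Tomm40l. Hnf4a, a master regulator of the hepatocyte, had 546.8 to 1152 CPM and 384.0 and 491.1 CPM (log2 fold change -0.94, SE 0.26, adjusted p = 0.0133), and was not past the threshold without KO chow replicate 1 (adjusted p = 0.133). Of 16 hepatocyte identity markers, 12 were lower and none higher (median -0.73), against 4 lower when scaled by library size alone and 6 without KO chow replicate 1. Their summed level was 133841 to 143641 CPM in WT chow and 107453 and 118483 CPM in KO chow, and its part in the decreases above was not tested.

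Genes of drug and steroid metabolism split in both directions, with 19 of 39 tested cytochromes P450 lower and 11 higher (median -0.42), or 17 lower and 13 higher when scaled by library size alone (median -0.01). The shares were 48.7% lower and 28.2% higher, against 17.0% and 22.0% over all genes tested. Cyp3a11 (chromosome 5 from 145854426 to 145879964), the main enzyme of drug oxidation and a target of the pregnane X receptor, had 306.0, 301.6, 309.3 and 266.2 CPM in WT chow and 3839 and 3152 CPM in KO chow. This was an 11.8-fold higher mean (295.7 ± 20 CPM, SD, n = 4, against 3495 ± 485.9 CPM, SD, n = 2; log2 fold change 3.56, SE 0.15, adjusted p = 1.57e-08). Cyp2b10, a classical target of CAR, had no count in any WT chow library and 2.75 and 7.59 CPM in KO chow, at least 46.1-fold higher when 3 counts per library are allowed for a count of 0 (adjusted p = 5.10e-05). Cyp17a1, the steroid 17α-hydroxylase, had 6.2 to 17 CPM in WT chow and 44 and 59.6 CPM in KO chow (log2 fold change 2.44, SE 0.45, adjusted p = 0.00101). In the other direction, Cyp2f2, an enzyme of periportal hepatocytes, fell from 1347 to 1692 CPM to 523.3 and 491.2 CPM (log2 fold change -1.59, SE 0.2, adjusted p = 4.15e-05).

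The pericentral programme, set by Wnt signals around the central vein, was lower. Of its 18 tested genes, 12 were lower and 1 higher (median -0.93), and 9 were lower when scaled by library size alone. Glul (chromosome 1 from 153899944 to 153909723), glutamine synthetase and the defining enzyme of the innermost pericentral hepatocytes, had 1150, 1061, 1206 and 1114 CPM in WT chow and 173.5 and 199.1 CPM in KO chow. The WT chow libraries lay close together and the KO chow mean was 0.164 times theirs (log2 fold change -2.6, SE 0.13, adjusted p = 7.34e-08). Cyp2e1, which oxidizes ethanol, had 4534, 6311, 8523 and 8708 CPM in WT chow and 969.3 and 1497 CPM in KO chow (log2 fold change -2.51, SE 0.29, adjusted p = 2.39e-05). Cyp1a2, a further pericentral enzyme, had 444.9 to 588.0 CPM and 86 and 111.4 CPM (log2 fold change -2.39, SE 0.18, adjusted p = 1.14e-06). Slc1a2, a glutamate transporter of the same cells, had 111.6 to 213.0 CPM in WT chow and 20.6 and 26.8 CPM in KO chow (log2 fold change -2.82, SE 0.44, adjusted p = 2.98e-04). The Wnt feedback genes did not pass the test: Axin2 had 10.9 to 13.4 CPM and 9.65 and 11.3 CPM (log2 fold change -0.24, SE 0.29, adjusted p = 0.546). Lgr5 had 4.45 to 9.6 CPM and 4.08 and 5.77 CPM (log2 fold change -0.44, SE 0.32, adjusted p = 0.293).

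**Figure D2:**
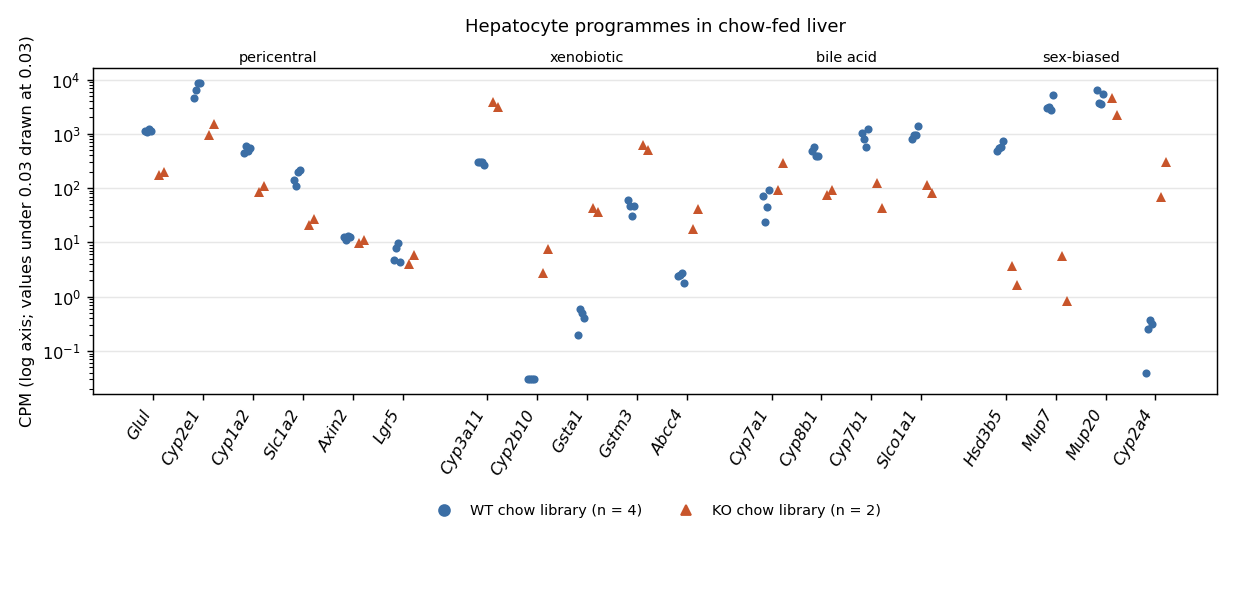
CPM (log axis) of genes of pericentral, xenobiotic, bile acid and sex-biased hepatocyte programmes in each chow library, with circles for the 4 WT chow libraries and triangles for the 2 KO chow libraries. Glul, Cyp2e1, Cyp1a2 and Slc1a2 are lower in both KO chow libraries while Axin2 and Lgr5 overlap, and Cyp3a11 stands at 3839 and 3152 CPM against 266.2 to 309.3 CPM.

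Male-biased liver genes fell almost without exception. Of 27 tested, 26 were lower and none higher (median -3.21), and 25 were lower when scaled by library size alone. Hsd3b5, a male-specific steroid dehydrogenase, had 477.9, 553.7, 576.4 and 741.2 CPM in WT chow and 3.73 and 1.62 CPM in KO chow, 0.00456 times the WT chow level (log2 fold change -7.78, SE 0.85, adjusted p = 1.71e-05). Mup7, a major urinary protein, had 2804 to 5176 CPM in WT chow and 5.68 and 0.849 CPM in KO chow (log2 fold change -10.09, SE 1.36, adjusted p = 8.88e-05). Mup20, another gene of that family, was the exception, with 3590 to 6443 CPM in WT chow and 4481 and 2226 CPM in KO chow (log2 fold change -0.52, SE 0.31, adjusted p = 0.203, or -1.09 and 0.0387 without KO chow replicate 1). Reads can be exchanged among the Mup paralogs, whose summed share of counts was 1.8% to 2.38% in WT chow and 0.634% and 0.32% in KO chow. Of 25 female-biased genes, 19 were tested, and 9 were higher and 2 lower (median 1.94). Prom1 had 0.688 to 1.44 CPM in WT chow and 11.7 and 9.58 CPM in KO chow (log2 fold change 3.24, SE 0.26, adjusted p = 1.42e-06). Cyp2c40 went the other way, with 3.13 to 34.7 CPM and 0.435 and 0.437 CPM (log2 fold change -5.0, SE 0.94, adjusted p = 0.00112). Sult3a1, a strongly female-specific gene, had no count in any chow library, and Xist was at or below 0.155 CPM in all of them. Pituitary growth hormone sets the sex bias of these genes, and of 16 tested genes of its axis 8 were lower and 1 higher (median -0.62), with 5 lower when scaled by library size alone, 4 without KO chow replicate 1 and 5 without replicate 2. The growth hormone receptor Ghr had 820.5, 886.8, 896.3 and 1046 CPM in WT chow and 257.6 and 332.7 CPM in KO chow (log2 fold change -1.63, SE 0.14, adjusted p = 3.06e-06). Igf1, its secreted effector, had 766.4 to 1077 CPM and 485.8 and 534.4 CPM (log2 fold change -0.76, SE 0.16, adjusted p = 0.00213).

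Genes of the oxidative stress response rose. Of 33 tested NRF2 targets and glutathione genes, 24 were higher and 1 lower (median 0.94). Srxn1, sulfiredoxin, had 50.2, 43.2, 43 and 37 CPM in WT chow and 267.4 and 285.7 CPM in KO chow (log2 fold change 2.67, SE 0.14, adjusted p = 7.98e-08). Gsta1, a glutathione transferase, had 0.194 to 0.598 CPM in WT chow and 42.3 and 37 CPM in KO chow, a mean 93.1-fold higher (log2 fold change 6.5, SE 0.26, adjusted p = 1.44e-08). Gstm3, of another class, had 31 to 61.1 CPM and 616.7 and 509.5 CPM (log2 fold change 3.61, SE 0.24, adjusted p = 3.61e-07). Slc7a11, the cystine importer, had at most 3 counts in each WT chow library and 23.8 and 30.9 CPM in KO chow, at least 244.0-fold higher (adjusted p = 1.44e-08).

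In the integrated stress and unfolded protein response, 13 of 32 tested genes were higher and 1 lower (median 0.22), or 13 and 6 with the clock score added. Those that rose included enzymes and transporters of amino acid supply and targets of the factor ATF4. Ddit3 (CHOP) had 6.37 to 8.71 CPM in WT chow and 37.2 and 26.8 CPM in KO chow (log2 fold change 2.13, SE 0.34, adjusted p = 3.26e-04), and may share reads with the overlapping gene Mars. Asns, asparagine synthetase, had 2.33 to 6.79 CPM and 32.2 and 21.6 CPM (log2 fold change 2.82, SE 0.35, adjusted p = 4.79e-05). Phgdh, the first enzyme of serine synthesis, had 0.2 to 0.315 CPM in WT chow and 10.9 and 5.92 CPM in KO chow (log2 fold change 4.97, SE 0.29, adjusted p = 1.36e-07). Atf4 itself, which is regulated by translation, had 133.2 to 150.1 CPM and 184.9 and 161.6 CPM (log2 fold change 0.26, SE 0.18, adjusted p = 0.274). Among 26 tested immediate early and AP-1 genes, 16 were higher and none lower (median 1.5). Myc had 2.52, 1.64, 2.83 and 1.24 CPM in WT chow and 29.7 and 26.6 CPM in KO chow, a mean 13.7-fold higher (log2 fold change 3.76, SE 0.28, adjusted p = 8.61e-07). Atf3, a stress-induced AP-1 partner, had 0.567 to 2.41 CPM and 49.2 and 40.8 CPM (log2 fold change 4.76, SE 0.34, adjusted p = 6.93e-07). Acute phase genes were mixed, with 5 of 26 higher and 8 lower (median -0.37), or 7 higher and 4 lower when scaled by library size alone (median 0.03). The share higher (19.2%) was near that of all genes tested (22.0%), and the share lower was 30.8% against 17.0%. Without WT chow replicate 1 the list had 12 higher and 7 lower, with a median of 0.29.

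The genes of cell division rose almost without exception. Of 58 tested genes of mitosis and cytokinesis, 57 were higher and none lower (median 4.23). Their summed level was 62.1 to 88.7 CPM in WT chow and 1157 and 581.1 CPM in KO chow. Mki67, which marks cycling cells, had 2.25, 1.57, 2.47 and 2.11 CPM in WT chow and 50.7 and 37.6 CPM in KO chow, a mean 21-fold higher (log2 fold change 4.39, SE 0.25, adjusted p = 1.10e-07). Ccnb1, cyclin B1, had 0.157 to 0.544 CPM and 38.4 and 16.3 CPM (log2 fold change 6.24, SE 0.5, adjusted p = 1.49e-06). Of 45 tested genes of DNA replication, 35 were higher and 1 lower (median 1.05). Their summed level overlapped, with 394.2 to 585.5 CPM in WT chow and 552.6 and 641.3 CPM in KO chow. Mcm6, a subunit of the replicative helicase, had 4.17 to 5.67 CPM in WT chow and 26.4 and 38.5 CPM in KO chow (log2 fold change 2.73, SE 0.17, adjusted p = 2.18e-07). Mitotic genes stood higher in KO chow 1 than in KO chow 2, with medians of 4.54 and 3.45 above the WT chow mean in log2(CPM + 0.1), and the replication genes had 1.14 and 1.15. The inhibitors of the cycle rose as well, with 16 of 25 tested p53 targets and inhibitors higher and none lower (median 1.62). Cdkn1a (p21) had 25.5, 7.74, 1.83 and 1.93 CPM in WT chow and 115.0 and 63.1 CPM in KO chow (log2 fold change 3.26, SE 0.75, adjusted p = 0.00401). Phlda3, a p53 target that inhibits AKT, had 0.505 to 0.976 CPM and 16.5 and 12.3 CPM (log2 fold change 4.14, SE 0.24, adjusted p = 1.36e-07).

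Genes of fetal liver and of liver tumours were higher in 17 of 20 tested, and none was lower (median 2.08). H19, an imprinted fetal RNA, had at most 3 counts in each WT chow library and 39.2 and 47.5 CPM in KO chow, at least 386.8-fold higher (adjusted p = 1.44e-08). Afp, α-fetoprotein, had 1.24 to 2.3 CPM in WT chow and 3.89 and 6.57 CPM in KO chow, a smaller change (log2 fold change 1.52, SE 0.27, adjusted p = 7.94e-04). Tff3, a secreted trefoil peptide, had 3.57, 0.504, 0.7 and 0.734 CPM in WT chow and 58.5 and 32.7 CPM in KO chow (log2 fold change 5.06, SE 0.62, adjusted p = 4.15e-05). Markers of cholangiocytes and of the ductular reaction were higher in 18 of 21 tested genes and lower in 1 (median 2.05), and their summed level rose from 488.3 to 678.2 CPM in WT chow to 1868 and 1519 CPM. Epcam had 1.35 to 2.13 CPM in WT chow and 11.3 and 6.33 CPM in KO chow (log2 fold change 2.26, SE 0.27, adjusted p = 3.24e-05), and Sox4, a progenitor factor, had 2.25 to 3.88 CPM and 31.5 and 26.8 CPM (log2 fold change 3.07, SE 0.21, adjusted p = 4.15e-07). The cholangiocyte keratin Krt19 had 2.68, 1.57, 0.867 and 1.1 CPM in WT chow and 5.6 and 2.23 CPM in KO chow, with overlap, and its call (log2 fold change 1.33, SE 0.4, adjusted p = 0.0181) was lost without KO chow replicate 1 (adjusted p = 0.428). Of 41 epigenetic writers, readers and erasers, 11 were higher and 11 lower (26.8% each, median 0.01). Over all genes tested these shares were 22.0% and 17.0%. The counts were 21 and 1 when scaled by library size alone, 7 and 3 without KO chow replicate 1, and 7 and 10 without KO chow replicate 2. Uhrf1, which recruits DNMT1 to replicating DNA, had 0.275 to 0.767 CPM in WT chow and 5.6 and 10.9 CPM in KO chow (log2 fold change 4.1, SE 0.32, adjusted p = 1.14e-06), and Sirt3, a mitochondrial deacetylase, had 59 to 106.8 CPM and 31.7 and 38.4 CPM (log2 fold change -1.29, SE 0.2, adjusted p = 2.71e-04). Sirt3 may share reads with the overlapping genes Psmd13 and Ric8a.

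Macrophage genes rose. Of 29 tested genes of monocytes and lipid-associated macrophages, 25 were higher and none lower (median 2.23), with a summed level of 1737 to 2373 CPM in WT chow and 4231 and 4023 CPM in KO chow. Trem2, a lipid receptor of these macrophages, had 0.854, 0.346, 0.567 and 0.321 CPM in WT chow and 19.8 and 17.9 CPM in KO chow, a mean 36.1-fold higher (log2 fold change 5.16, SE 0.23, adjusted p = 2.56e-08). Mmp12, macrophage elastase, had 0.229 to 0.311 CPM and 79.7 and 142.9 CPM (log2 fold change 8.7, SE 0.26, adjusted p = 1.39e-09). Ccr2, the receptor of recruited monocytes, had 0.734 to 4.66 CPM and 23.1 and 18.1 CPM (log2 fold change 3.14, SE 0.4, adjusted p = 5.05e-05). Of 16 Kupffer cell genes, 9 were higher and 1 lower (median 1.07). Clec4f, which defines Kupffer cells, had 101.9 to 168.0 CPM in WT chow and 203.9 and 245.8 CPM in KO chow, without overlap but not past the test (log2 fold change 0.66, SE 0.39, adjusted p = 0.208, or 0.0148 without KO CDAHFD replicate 3). The scavenger receptor Cd163 was the list's decrease, with 16.5 to 26.5 CPM and 6.58 and 5.53 CPM (log2 fold change -1.72, SE 0.54, adjusted p = 0.0228), lost without either KO chow library (adjusted p = 0.0993 and 0.124).

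Of 12 tested neutrophil genes, 10 were higher and none lower (median 2.81), and 5 were higher without KO chow replicate 1. The summed neutrophil level of 6.47 to 46.5 CPM in WT chow and 298.1 and 134.7 CPM in KO chow came mainly from Lcn2, which other liver cells also make, at 30, 3.75, 2.97 and 2.52 CPM and at 259.7 and 109.4 CPM (log2 fold change 4.24, SE 0.78, adjusted p = 9.79e-04). The defining marker Ly6g had at most 0.0816 CPM in any chow library. T and NK cell genes were low throughout, with a summed level of 22.0 to 34.0 CPM in WT chow and 46.8 and 42.5 CPM in KO chow. Of 26 tested, 14 were higher and 1 lower (median 1.10), and 5 were higher without KO chow replicate 1. Cd8a had 0.0944 to 0.233 CPM and 1.69 and 0.655 CPM (log2 fold change 2.57, SE 0.44, adjusted p = 5.34e-04), and Cd3e had 0.427 to 0.871 CPM and 1.36 and 0.873 CPM and did not pass the test (log2 fold change 0.84, SE 0.38, adjusted p = 0.0975). Of 12 B and plasma cell genes, 4 were higher and none lower (median 0.81), and 2 without KO chow replicate 2. Of 5 tested erythroid genes, 1 was higher and 1 lower (median 0.73). Without WT chow replicate 1, 4 were higher, without KO chow replicate 2 it was 3, and without KO chow replicate 1 none was. Of 4 tested sex chromosome genes, 2 were lower and none higher (median -0.44), and none was lower without KO chow replicate 1 or when scaled by library size alone.

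Chemokines and their receptors were higher in 20 of 30 tested genes and lower in 2 (median 2.17). Their summed level overlapped, with 493.9 to 669.1 CPM in WT chow and 751.7 and 623.8 CPM in KO chow. Ccl2, the ligand of CCR2, had 2.41, 0.661, 0.767 and 0.275 CPM in WT chow and 13.8 and 10.5 CPM in KO chow (log2 fold change 3.55, SE 0.45, adjusted p = 5.50e-05). Cxcr4 had 0.441 to 0.776 CPM and 6.17 and 7.57 CPM (log2 fold change 3.65, SE 0.21, adjusted p = 1.13e-07). Of 43 tested genes of the inflammasome, toll-like receptors and cytokines, 28 were higher and 2 lower (median 1.28). Tnf had 0.138 to 0.427 CPM in WT chow and 2.72 and 1.87 CPM in KO chow (log2 fold change 3.05, SE 0.31, adjusted p = 8.39e-06), and Nlrp3 had 1.19 to 2.02 CPM and 3.97 and 4.32 CPM (log2 fold change 1.43, SE 0.22, adjusted p = 2.71e-04). The interleukin 1 antagonist Il1rn rose by more than Il1b. Il1rn had 1.28 to 4.08 CPM and 36.4 and 32.6 CPM (log2 fold change 3.84, SE 0.28, adjusted p = 6.80e-07), and Il1b had 1.76 to 4.74 CPM and 9.25 and 7.35 CPM (log2 fold change 1.37, SE 0.27, adjusted p = 0.00166), a difference between the genes that was not tested. Interferon-induced genes were higher in 19 of 38 tested and lower in 2 (median 0.65), with 10 higher without KO chow replicate 1. Their summed level overlapped, with 1753 to 2305 CPM in WT chow and 3226 and 2107 CPM in KO chow. Of 19 MHC genes, 10 were higher and none lower (median 0.80). Their summed level also overlapped, with 4274 to 5310 CPM in WT chow and 6515 and 4418 CPM in KO chow. The class II gene H2-Ab1 had 17.7 to 49 CPM in WT chow and 151.3 and 101.8 CPM in KO chow (log2 fold change 2.01, SE 0.32, adjusted p = 3.52e-04), while the class I gene H2-K1 had 1331 to 1742 CPM and 1581 and 983.3 CPM and did not pass the test (log2 fold change -0.24, SE 0.19, adjusted p = 0.322, or 0.0349 without KO chow replicate 1).

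Genes of the extracellular matrix rose in 38 of 45 tested and fell in 5 (median 2.10), of which 3 were lower without KO chow replicate 2. The summed level of the list overlapped, with 4191 to 4884 CPM in WT chow and 4541 and 5068 CPM in KO chow. Col1a1, the main fibrillar collagen, had 20.3, 4.44, 4.43 and 4.72 CPM in WT chow and 180.0 and 148.8 CPM in KO chow, a mean 19.4-fold higher (log2 fold change 4.28, SE 0.5, adjusted p = 2.66e-05). Timp1, an inhibitor of matrix proteases, had 0 to 0.167 CPM and 8.16 and 5.36 CPM (log2 fold change 6.3, SE 0.42, adjusted p = 3.61e-07). Lox, which crosslinks collagen, had 0.133 to 1.32 CPM and 7.94 and 5.72 CPM (log2 fold change 3.9, SE 0.54, adjusted p = 1.02e-04). Stellate cell and TGF-β genes were higher in 18 of 28 tested and none was lower (median 0.93). Pdgfrb, the receptor that marks stellate cells, had 7.98 to 11 CPM in WT chow and 32.3 and 32.5 CPM in KO chow (log2 fold change 1.74, SE 0.17, adjusted p = 5.44e-06). Reln, also made by these cells, had 45.1 to 56.6 CPM and 75.5 and 122.6 CPM (log2 fold change 0.92, SE 0.17, adjusted p = 9.59e-04). Few endothelial genes were called, with 4 of 22 higher and 2 lower (median 0.00), and 2 were higher without either KO chow library. Pecam1 had 16.1 to 27.7 CPM and 24.1 and 27.9 CPM (log2 fold change 0.19, SE 0.31, adjusted p = 0.667). Since whole liver was sequenced, the part of changed cell numbers in the immune, matrix and biliary lists was not tested.

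**Figure D3:**
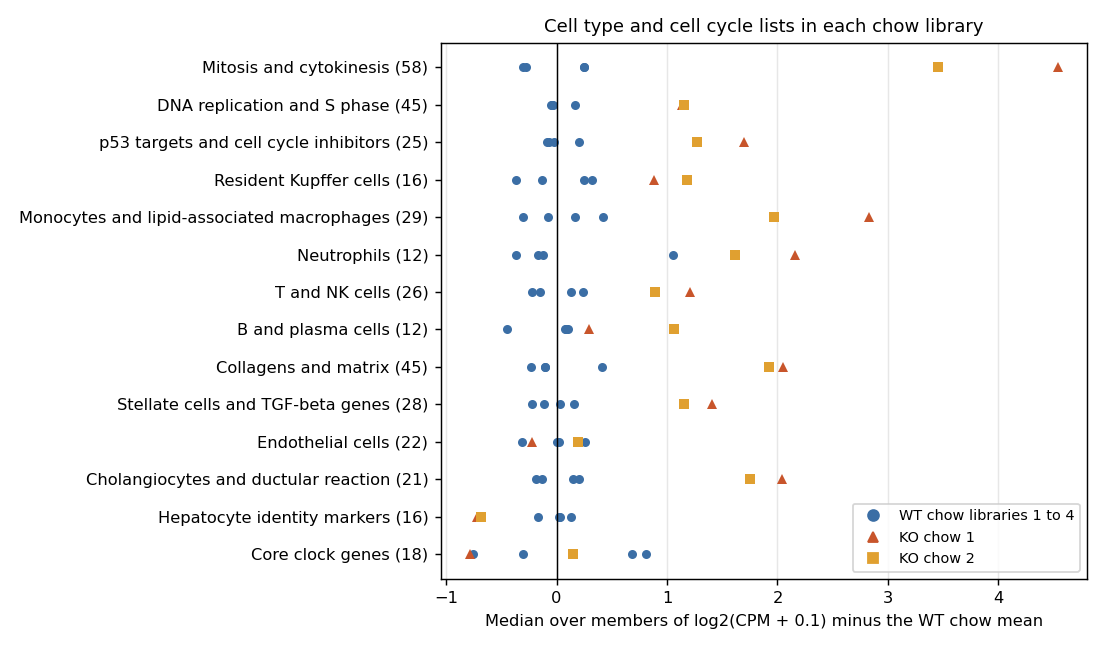
Median over the genes of a list of log2(CPM + 0.1) minus the WT chow mean, for 14 lists with the number of tested genes in brackets, with blue circles for WT chow libraries, a triangle for KO chow 1 and a square for KO chow 2. Mitotic genes stand at 4.54 and 3.45 in KO chow, the lists of lipid-associated macrophages and of matrix between 1.92 and 2.83, and endothelial genes at -0.22 and 0.19, while core clock genes spread from -0.76 to 0.81 within WT chow.

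Few core clock genes were called, with 3 of 18 lower and none higher (median -0.57). The share lower (16.7%) was near that of all genes tested (17.0%). In this list 1 was lower without KO chow replicate 1, 1 when scaled by library size alone, and 6 were lower and 2 higher with a clock score as a covariate, the mean scaled level of 6 of the listed genes minus that of the others. Over all genes that covariate left 6743 of the 6763 calls in place. The KO chow libraries differed from each other by a median of 0.27 in log2 over the called genes, and 382 of these differed by more than 2-fold between them. Over the WT chow libraries the median range of the called genes was 0.61.

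**Figure D4:**
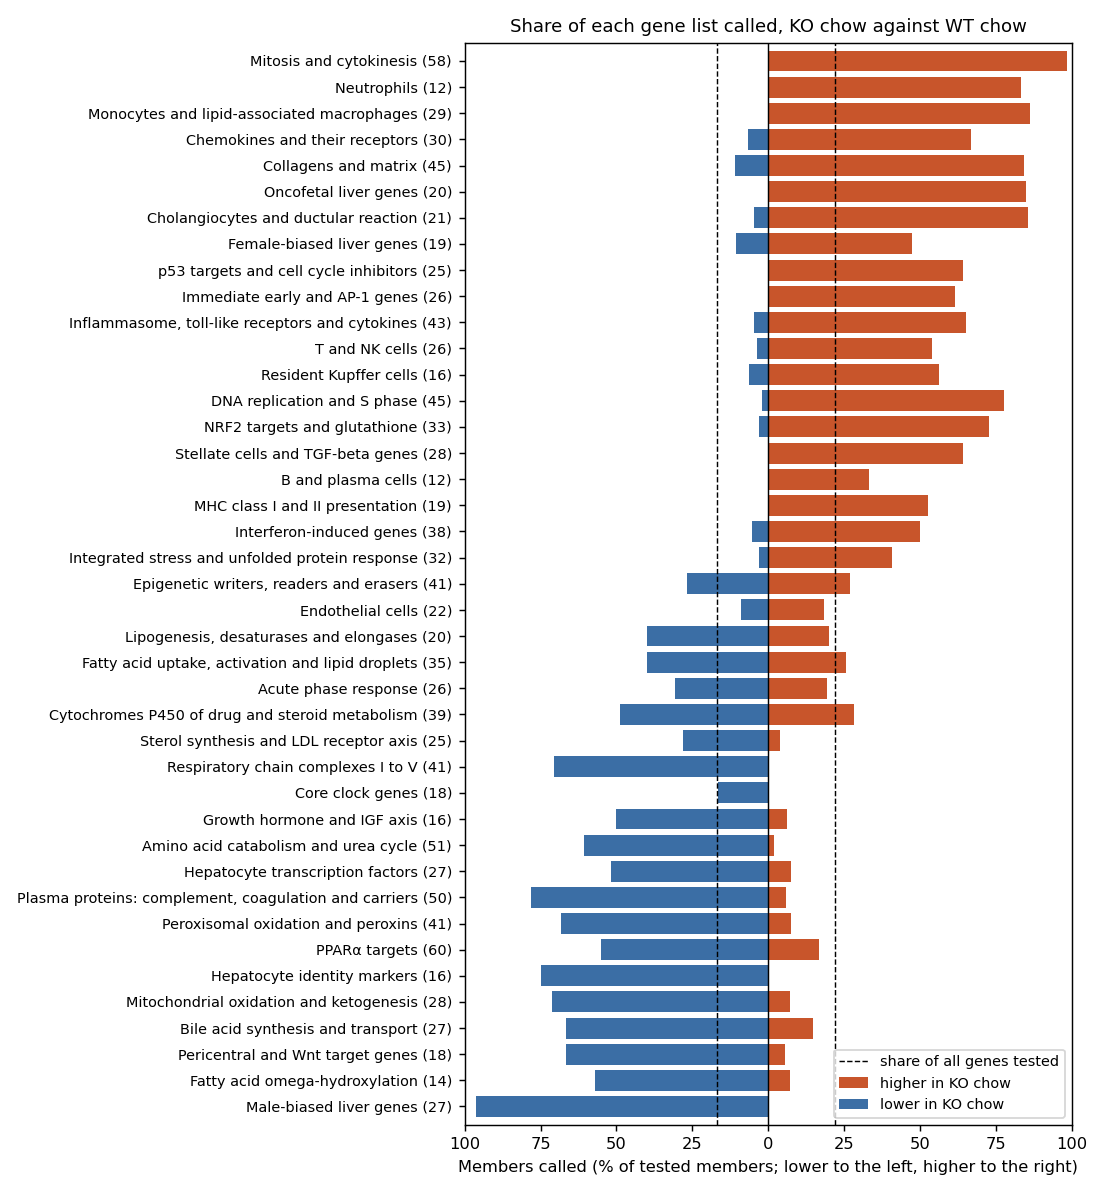
Share of the tested genes of each of 41 lists that was higher (right) or lower (left) in KO chow, ordered by the median log2 fold change of the list, with the number of tested genes in brackets and dashed lines at the shares over all genes tested (22.0% and 17.0%). Mitosis has 98.3% of its genes higher, male-biased liver genes 26 of 27 lower, and endothelial genes lie near the dashed lines.

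The mice on CDAHFD gave a measure of the genotype effect in other libraries. Ppara itself had 59.5, 75.5 and 73.5 CPM in WT CDAHFD, below the WT chow libraries. The paper also reports less PPARα RNA and protein in WT mice on CDAHFD. In KO CDAHFD Ppara had 36.3, 20.7 and 51.9 CPM. This difference between genotypes did not pass the test (log2 fold change -0.94, SE 0.42, adjusted p = 0.547). Its part in the small number of calls was not tested. Between KO and WT mice on CDAHFD, 62 of 17358 genes were called (0.357%), 47 lower and 15 higher, and 1523 had an unadjusted p under 0.05. DESeq2 called 245. The interaction, which tests whether the knockout effect on chow differs from that under CDAHFD, was called in 4011 genes (23.1%), and in 3922 of these the effect was larger on chow. For Ppara the interaction was -1.74 and was not called (adjusted p = 0.0605). The genes called on chow had a median absolute log2 fold change of 1.15 on chow and 0.18 under CDAHFD. No gene of the lists of NRF2 targets, mitosis, replication, macrophages, matrix, plasma proteins or amino acid catabolism was called between genotypes under CDAHFD in this test. For Mki67, for example, the log2 fold change was -0.11 (adjusted p = 0.927), with 41.0 to 46.6 CPM in WT CDAHFD and 25.7 to 50.2 CPM in KO CDAHFD, and the interaction was 4.51 (adjusted p = 2.96e-06).

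A set of 37 genes was lower in KO mice on both diets, 10 were higher on both, and 5 moved in opposite directions. The 62 calls under CDAHFD became 26 to 39 when 1 CDAHFD library was left out, and the members of these sets were not followed there. Of the 37, 13 are PPARα targets, against 60 of the 17358 genes tested. With the lists of peroxisomal and mitochondrial oxidation and of ω-hydroxylation added, 15 of the 37 are members. A further gene of the 37, Fitm1, is in the list of fatty acid uptake and lipid droplets. The genes below are described here because they were called, not by the rule for named genes. Vnn1 had 87.9, 84.4 and 68.5 CPM in WT CDAHFD and 10.8, 13.4 and 13.1 CPM in KO CDAHFD (log2 fold change -2.69, SE 0.31, adjusted p = 0.00142), close to its change of -2.51 on chow, and the interaction was 0.18 (adjusted p = 0.815). Etfdh, which passes electrons from β-oxidation to the respiratory chain, had 353.6 to 458.1 CPM in WT chow, 172.5 and 183.8 CPM in KO chow, 240.3 to 262.6 CPM in WT CDAHFD and 97.3 to 123.8 CPM in KO CDAHFD. Its log2 fold change was -1.19 (SE 0.14, adjusted p = 3.06e-05) on chow and -1.13 (SE 0.13, adjusted p = 0.00127) under CDAHFD. Cpt2, Slc25a20 and Hsd17b4 likewise fell by similar amounts, with -0.96, -1.17 and -0.94 on chow and -1.01, -1.16 and -0.97 under CDAHFD. For 31 of the 37 genes the interaction was not called, which does not show that the effects are equal. Esrrg, an orphan nuclear receptor of oxidative metabolism, fell from 2.06 to 3.93 CPM to 0 and 0.121 CPM on chow (adjusted p = 3.40e-05) and from 0.717 to 1.18 CPM to 0.0476 to 0.107 CPM under CDAHFD (log2 fold change -3.71, SE 0.56, adjusted p = 0.0118). Retsat fell more on chow (-2.04) than under CDAHFD (-0.74, adjusted p = 0.0293), where WT mice had only 95.9 to 115.6 CPM, and the interaction was -1.3 (adjusted p = 3.43e-04).

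Ehhadh showed the converse. It did not pass the test on chow but was lower in KO CDAHFD, with 278.4 to 323.1 CPM in WT CDAHFD and 167.5 to 201.6 CPM in KO CDAHFD (log2 fold change -0.77, SE 0.14, adjusted p = 0.0467), and the interaction was 0.82 (adjusted p = 0.0133). Ly6d, a membrane-anchored surface protein, changed sign between the diets. It had 0.183 to 0.582 CPM in WT chow and 37.8 and 35 CPM in KO chow, and 57.4 to 70 CPM in WT CDAHFD and 18.4 to 22.5 CPM in KO CDAHFD. The log2 fold change was 6.37 (SE 0.21, adjusted p = 2.09e-09) on chow and -1.68 (SE 0.16, adjusted p = 8.07e-04) under CDAHFD, and the interaction was 8.05 (adjusted p = 8.64e-09). Gldn, gliomedin, was higher in KO mice on both diets, at 13.1 and 20.6 CPM against at most 0.0776 CPM on chow and at 9.33 to 23.7 CPM against 1.27 to 2.64 CPM under CDAHFD (log2 fold change 2.83, SE 0.38, adjusted p = 0.0048).

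For some genes KO chow stood apart from the other 3 groups. Glul had 1066 to 1144 CPM in WT CDAHFD and 1033 to 1205 CPM in KO CDAHFD, as in WT chow, and the interaction was -2.63 (adjusted p = 1.07e-06). Tff3 had 1 to 2.82 CPM in the 6 CDAHFD libraries against 58.5 and 32.7 CPM in KO chow (interaction 4.98, adjusted p = 0.00129). Cyp2b10 was at most 0.214 CPM in the CDAHFD libraries. Cyp3a11 was also highest in KO chow, but the other 3 groups were not alike, and both CDAHFD groups lay above WT chow. It had 1569 to 1831 CPM in WT CDAHFD and 821.6 to 1164 CPM in KO CDAHFD. This difference between genotypes did not pass the test (log2 fold change -0.75, adjusted p = 0.0528), and the interaction was 4.31 (adjusted p = 1.58e-07).

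**Figure D5:**
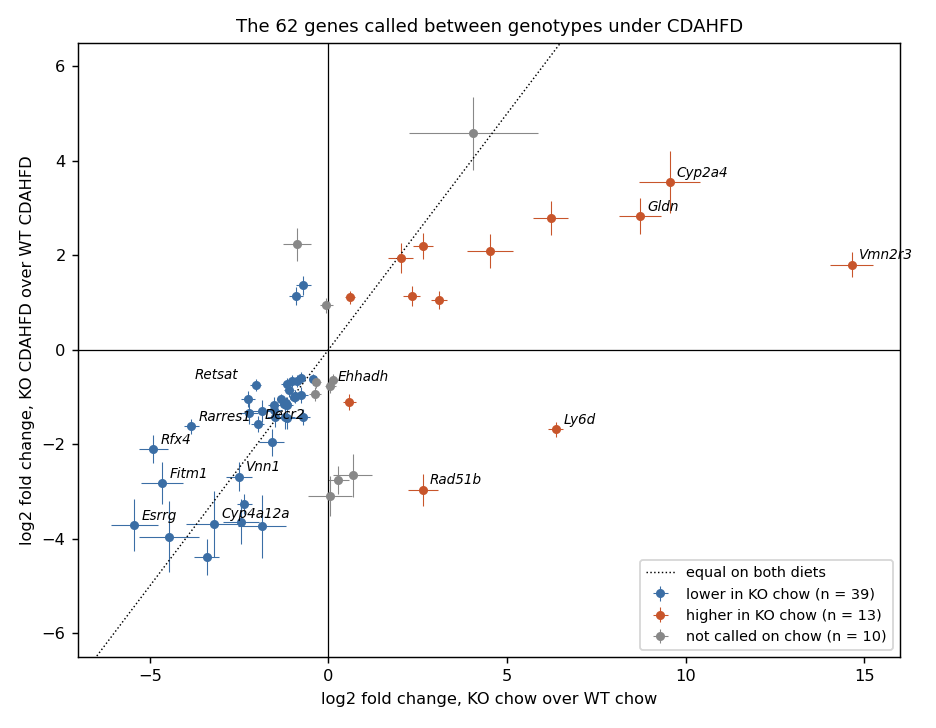
log2 fold change between KO and WT mice on chow (x) and under CDAHFD (y) for the 62 genes called under CDAHFD, with bars of 1 SE and a dotted line of equal effect. Most genes lie in the lower left, where 37 were lower on both diets, Ehhadh lies near 0 on chow, and Ly6d lies at 6.37 and -1.68.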

How the data were processed

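Total RNA of mouse liver was poly-T selected and sequenced from non-directional libraries. The authors deposited 1 table of raw read counts per gene for all 12 libraries. The labels name FastQC 0.11.5, STAR 2.7.3a, DESeq2 and the build GRCm38. The counting program and the annotation are not given in the sources used here. Total counts per library ran from 29906785 to 43551003. Reads of overlapping genes on opposite strands and of near-identical paralogs cannot be told apart in such data.

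Groups were taken from the labels. The methods speak of 3 mice of each group, while the labels give 4 WT chow and 2 KO chow libraries, and the library called KO chow 2 here carries the animal number 3. Libraries were treated as separate mice, and p-values measure the spread between them. All 12 libraries were fitted in edgeR 4.0.16 (R 4.3.3) with a mean for each of 4 groups, TMM scaling and filterByExpr, and contrasts were tested with the quasi-likelihood test. The p-values were adjusted by Benjamini-Hochberg over the 17358 genes tested, and genes were called at 0.05. The SE was derived from the log2 fold change and its F value. A count of 0 was allowed 3 counts per library for a lower bound of a fold change, which covers counting error only.

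The members and the 43 gene lists were chosen with earlier results of these data known. Named are Ppara, key genes of the lists, the up to 3 members of each list with the largest called change (mean of at least 50 counts, libraries not overlapping), the 10 largest changes of all genes and the 5 largest interactions in each direction, of which the text gives a part. Outside this rule, and after their values were seen, Acot4, Slc25a20, Acadvl, Cyp4a32, Slc27a2, Cyp27a1, Nr1h4, Cyp17a1, Etfdh, Cpt2 and Esrrg were named. Single values of some named genes are not reported here. Lists are described by counts and medians with no set test. Gene identifiers were matched to symbols and positions in GENCODE M21 (94.08% of identifiers, 99.691% of counts), and promoters were from RefSeq on GRCm38.p6. The fit was tested on simulated data. Alternatives were other scalings, DESeq2 1.42.0, other filters, a clock score as a covariate, the replicate number as a block, the chow libraries alone, and leaving out each library.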

Additional observations from a re-analysis of the deposited data

Results flagged for a closer look

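In the 4 WT chow libraries, 11 of the 123 genes examined had a library far from the others by Dixon's criterion, which chance meets in about 1 in 20 groups. In 6 of them it was WT chow 1, where Saa1 had 667.5 CPM, Acta2 31.9 CPM, Lcn2 30 CPM, Col1a1 20.3 CPM, Tff3 3.57 CPM and Lox 1.32 CPM, each the highest of its group. The highest level lay in WT chow 3 for Acaa1b (1369 CPM) and Fitm1 (13.6 CPM), and in WT chow 4 for Mup7 (5176 CPM). The lowest lay in WT chow 4 for Sox4 (2.25 CPM) and in WT chow 2 for Cd8a (0.0944 CPM).

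The genotype effect differed between the diets in 4011 genes by the interaction test. The difference in log2 fold change, chow minus CDAHFD, was 8.05 for Ly6d, 4.98 for Tff3, 4.51 for Mki67, 4.31 for Cyp3a11, 0.82 for Ehhadh, -1.3 for Retsat and -2.63 for Glul.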

How the results depend on the processing

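On chow, Ppara stayed lower and past the threshold in every alternative (log2 fold change -3.56 to -2.12 when 1 library was left out). The calls of KO chow ranged from 4320 to 7128 when 1 library was left out, with 2813 to 4072 higher and 1507 to 3072 lower. Scaled by library size alone, 7037 were higher and 1149 lower. DESeq2 called 7247 genes, of which 6720 were among the 6763, the chow libraries alone gave 4937, and a clock score as covariate gave 7704. Under CDAHFD, the 62 calls became 245 with DESeq2, 215 with no filter on low counts and 183 with the clock score. They were 26 to 75 when 1 library was left out, and 26 to 39 when it was a CDAHFD library. The interaction was called in 2828 to 4630 genes when 1 library was left out.

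Libraries of the same replicate number had correlations of deviations of 0.266 and -0.0348 on chow, and of -0.0186, -0.113 and -0.0993 under CDAHFD. The replicate numbers differ from the animal numbers of the labels for part of the libraries. A pairing of mice by animal number was therefore not tested, and the replicate block uses the replicate numbers. With the replicate block, 5433 genes were called, and Ppara had -2.22. The block turned the sign of Arntl (-0.42), Dbp (3.15), Ehhadh (-0.01) and Cpt1a (0.02), none of them called.

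Of the lists, the medians of uptake and lipid droplets (0.03), lipogenesis (0.07) and the acute phase (0.03) changed sign when scaled by library size alone. The acute phase also did so with the clock score (0.02), without WT chow 1 (0.29) and without KO chow 2 (0.05), with -0.39 to 0.29 when 1 library was left out. Genes not called that changed sign under library size alone were Acaa1b (0.13), Plin2 (0.35), Cpt1a (0.09), Cyp4a14 (0.2), Alb (0.2), Axin2 (0.16) and H2-K1 (0.15). With the clock score, Cyp4a14 had 0.02. When 1 library was left out, the log2 fold changes of genes that changed sign ran as follows: Saa1 -1.2 to 1.33, Acta2 -0.36 to 3.35, Arntl -0.78 to 0.77, Ehhadh -0.04 to 0.13, Acaa1b -0.38 to 0.06, Plin2 -0.22 to 0.14, Cpt1a -0.81 to 0.06, Cyp4a14 -0.53 to 0.82 and H2-K1 -0.61 to 0.06. Of the 102 named genes that were called, 96 stayed called in the same direction in every alternative that gave them an adjusted p. Pdk4, Acot4, Cyp7a1, Hnf4a, Krt19 and Cd163 fell short of the threshold in at least 1 alternative. The causes were not tested. KO chow rests on 2 libraries.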
